A study of Mus musculus with 4 samples.

Results

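The Bcl2 family was followed through 10 mouse genes (Bcl2, Bcl2l1, Mcl1, Bcl2a1b, Bax, Bak1, Bcl2l11, Bid, Bbc3 and Pmaip1), each taken as the row of the count table whose Ensembl ID carries that symbol. All 10 had a row among the 29247 gene IDs, and all 10 passed the filter on low counts among 18715 genes tested. Cxcr4+ macrophages, flow sorted from the liver 72 h after an intraperitoneal dose of 300 mg/kg acetaminophen (APAP), gave 3 RNA-sequencing libraries, and control liver macrophages gave 1. All mice were C57BL6J aged 8 weeks. APAP kills hepatocytes at high doses. The Cxcr4+ sort is named for the APAP group alone and the gate of the control is not described, so drug and sort cannot be told apart. Whether each APAP library is from another mouse is not in the labels, so the p-values rest on a spread between samples that may be technical.

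The Bcl2 family decides whether the outer membrane of the mitochondrion stays closed. Survival members (Bcl2, Bcl-xL from Bcl2l1, Mcl1, and A1 from the Bcl2a1 genes) hold their relatives in check. The effectors Bax and Bak1 form the pores that let cytochrome c into the cytosol, where it assembles the apoptosome and starts the caspases. BH3-only members (Bim from Bcl2l11, Bid, Puma from Bbc3, Noxa from Pmaip1) sense damage or loss of growth factors and tip the balance towards the effectors. In macrophages and other myeloid cells, Mcl1 and A1 are known as survival proteins that turn over quickly, and Bim as a brake on cell lifespan.

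The APAP libraries held 48282283, 52043418 and 56702837 counts, and the control held 49950909. At this similar depth, 23376, 23854 and 23880 genes had counts in APAP libraries, against 18793 in the control. Gene IDs without a symbol took 0.14%, 0.15% and 0.15% of the counts in APAP libraries, against 0.56% in the control. The reason for these differences was not tested. Cxcr4 itself stood at 84.5, 132 and 101 CPM (CPM is a gene's count relative to the library's total, which was scaled by the TMM method) in Cxcr4+ APAP libraries, against 41.3 CPM in control macrophages. The macrophage lysozyme gene Lyz2 averaged 8450.3 ± 432 CPM in APAP libraries (SD, n = 3) and 6747 CPM in the control (log2 fold change 0.32, not called, edgeR adjusted p = 0.114). Of 10 macrophage markers, 7 were lower and 1 higher in APAP libraries, and their summed level was 26177 to 31633 CPM there and 46392 CPM in the control. Among the lower, Clec4f was at 2785, 4083.5 and 4670 CPM in Cxcr4+ APAP libraries, against 13080 CPM in control macrophages. Its log2 fold change was -1.77 (SE 0.26, edgeR adjusted p = 0.00465), and that of Cd5l was -0.63 (SE 0.14, adjusted p = 0.0157). Markers of other cell types were present too. Summed B cell markers were 532 to 795 CPM in Cxcr4+ APAP libraries, against 155 CPM in control macrophages, with 11 of 12 higher. The exception was Cd22, which at 80.2 CPM was most of the control sum, and was at 82.1 to 106 CPM in APAP libraries. Hepatocyte markers were 1431 to 2294 CPM in APAP libraries, against 3586 CPM in the control, with all 10 lower. Most of each hepatocyte sum was 1 gene, Trf, at 1109, 1516 and 1878 CPM in APAP libraries, against 2680 CPM in the control. Alb was at 218, 177 and 269 CPM in APAP libraries, against 492 CPM in the control. Of the markers of other cells, 6 of 7 plasmacytoid and 7 of 8 conventional dendritic cell genes were higher, with the conventional dendritic cell gene Batf3 lower, and 4 of 8 sinusoidal endothelial genes were lower and 1, Kdr, higher.

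The 3 Bcl2a1 genes with reads are near copies of each other, in promoter and in transcript. These stretches before their annotated starts (RefSeq, GRCm38.p6) show the likeness. They come from chr9:88956794-88956913 on the plus strand for Bcl2a1a, chr9:89199103-89199222 on the plus strand for Bcl2a1b and chr9:88731857-88731970 on the minus strand for Bcl2a1d. Capitals mark a base that differs from Bcl2a1b.
Bcl2a1a: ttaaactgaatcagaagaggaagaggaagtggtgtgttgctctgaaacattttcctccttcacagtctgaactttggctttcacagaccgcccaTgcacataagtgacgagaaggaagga
Bcl2a1b: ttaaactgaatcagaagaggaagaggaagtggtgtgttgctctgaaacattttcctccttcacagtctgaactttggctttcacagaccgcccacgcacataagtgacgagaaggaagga
Bcl2a1d: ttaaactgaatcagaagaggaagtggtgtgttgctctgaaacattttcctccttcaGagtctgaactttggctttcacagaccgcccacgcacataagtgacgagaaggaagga
Counting from 1 at the first base of the Bcl2a1b stretch of 120 bases, Bcl2a1a carries the substitution C95T, and Bcl2a1d carries C63G and lacks 6 bases. In the GENCODE M21 transcripts, 57.6% of the 50-base windows of Bcl2a1b occur letter for letter in another Bcl2a1 gene, as do 69.0% of those of Bcl2a1a and 79.5% of those of Bcl2a1d. How the authors' counting treated such reads is not given in the sources used here, so the split among the 3 genes is uncertain.

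A second pair of stretches comes from 2 members that rose, Bbc3 and Bcl2l11. Capitals mark TGTTTAC, the core bound by FOXO factors, or its reverse complement. The first lies at chr7:16310054-16310140 and the second at chr2:128125788-128125857, both on the plus strand of GRCm38.p6.
Bbc3: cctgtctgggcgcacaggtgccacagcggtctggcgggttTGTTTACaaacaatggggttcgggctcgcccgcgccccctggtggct
Bcl2l11: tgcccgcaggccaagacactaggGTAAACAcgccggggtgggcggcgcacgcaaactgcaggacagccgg
RefSeq promoters were matched for 9 of the 10 members, all but Pmaip1, giving 14 windows of 250 bases before a start. TGTTTAC, sought on both strands, stood in 2 of these windows, one of Bbc3 and one of Bcl2l11, against 3.17% of all 32851 promoters in the table. The GC box GGGCGG, also sought on both strands, stood in 10 of the 14 windows and in 32.7% of all promoters. It stood in windows of 7 members, among them Bcl2, Bax and Mcl1. A narrow form of the NF-kB motif, sought on both strands, stood in 0 of the 14 windows and in 0.356% of all promoters. With so rare a form, 0 matches in 14 windows cannot show whether these promoters lack NF-kB sites. Of other risen genes searched, neither the Bcl2 window nor the 3 windows of Bmf held TGTTTAC. The motifs were chosen with the fold changes already known, and a match is a run of letters, not a bound site.

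Across the family, 3 members were higher and 4 lower in APAP Cxcr4+ macrophages by the edgeR quasi-likelihood test, at a Benjamini-Hochberg adjusted p of 0.05 over all genes tested. The same test called 25.4% of all genes higher and 18.9% lower, and 44.3% in either direction, or 56.6% of the genes of at least 10 CPM on average. The members' counts were not tested against these shares. The median log2 fold change was -0.20 over the 10 members and 0.08 over all genes tested. The survival and the BH3-only genes each held members called in both directions. For all 10 members the control fell beyond the span of the APAP values, as was so for 84.8% of all genes tested.

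**Figure D1:**
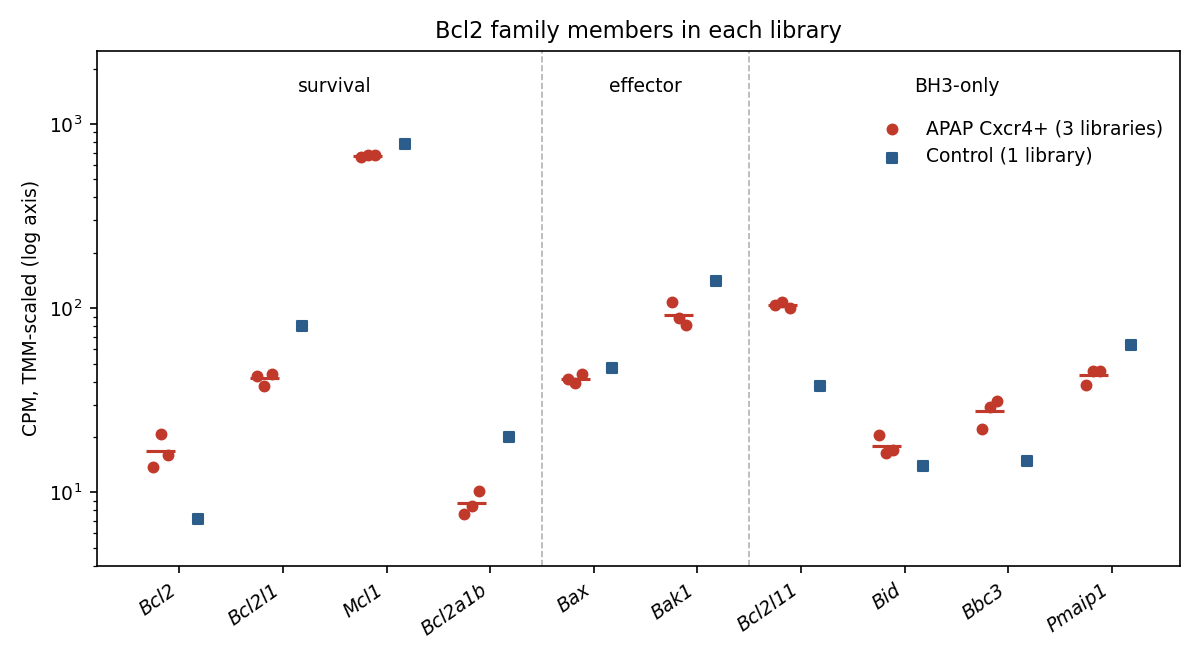
TMM-scaled CPM on a log axis for the 10 members, with the 3 APAP Cxcr4+ libraries as red points (bar, their mean) to the left of the single control library (blue square). Bcl2, Bcl2l11, Bid and Bbc3 sit above the control and the other 6 members below it.

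Mcl1, whose protein binds Bim, Noxa and Bak1, was by far the most abundant member per length of exon. It stood at 197 ± 3.26 CPM per kb in APAP libraries (SD, n = 3) and 227 CPM per kb in the control. Bak1 came next at 38.4 ± 5.79 CPM per kb in Cxcr4+ APAP libraries, against 58.4 CPM per kb in control macrophages, and then Bax at 26.3 ± 1.53 and 29.9 CPM per kb. In the APAP libraries Pmaip1 followed at 15.8 ± 1.54 CPM per kb, then Bcl2l11 at 13.001 ± 0.48, Bbc3 at 12.96 ± 2.24, Bcl2a1b at 10.7 ± 1.61 and Bcl2l1 at 9.08 ± 0.69. From Bcl2l11 down to Bcl2l1, each gene's range over the APAP libraries overlapped that of the next gene alone: Bcl2l11 lay above both Bcl2a1b and Bcl2l1, and Bbc3 above Bcl2l1. Bid, at 5.05 ± 0.64 CPM per kb, and Bcl2, at 1.84 ± 0.39, closed the order. The control kept the same genes at the top and bottom, but there Bcl2a1b ranked 4 at 24.4 CPM per kb and Bcl2l11 ranked 8 at 4.73 CPM per kb, while in APAP libraries they ranked 7 and 5. The order takes Bcl2a1b alone for A1. Its near copies Bcl2a1a and Bcl2a1d averaged 9.14 and 9.75 CPM per kb in APAP libraries, against 28.3 and 21.8 in the control. The rank of A1 over all its genes is thus not given by this order.

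Among the survival genes, Bcl2 rose while Bcl2l1 and Bcl2a1b fell. Bcl2, the founding member of the family and a mainstay of lymphocyte survival, was at 13.8, 20.7 and 15.9 CPM in Cxcr4+ APAP libraries, against 7.21 CPM in control macrophages. The second APAP library was the highest and the control the lowest, and the groups did not overlap. The log2 fold change was 1.22 (SE 0.26, edgeR adjusted p = 0.0142), or 2.33-fold. It was the most variable member over the APAP libraries, with a coefficient of variation of 21.1%.

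Values of B cell markers moved with Bcl2. Their summed level was 532, 795 and 643 CPM in Cxcr4+ APAP libraries, against 155 CPM in control macrophages, where the B cell gene Cr2 was at 0, so both measures put the 4 libraries in the same order. T cell markers, 9 of 12 of them higher, summed to 162, 178 and 133 CPM in Cxcr4+ APAP libraries, against 76.6 CPM in control macrophages. The part of these cells in the Bcl2 value was not tested. In sorted bulk samples such as these, fewer cells of a type and less RNA per cell cannot be told apart.

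Bcl2l1, which encodes Bcl-xL and, by alternative splicing, a shorter form with the opposite activity, was at 42.9, 38.0 and 44.0 CPM in Cxcr4+ APAP libraries, against 79.997 CPM in control macrophages. All APAP values lay close together and far below the control. The log2 fold change was -0.94 (SE 0.11, edgeR adjusted p = 0.00232). Counts per gene do not separate the long and the short form.

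Bcl2a1b, one of the mouse genes for the NF-kB-inducible protein A1, was at 7.64, 8.45 and 10.2 CPM in Cxcr4+ APAP libraries, against 19.9 CPM in control macrophages. Its log2 fold change was -1.18 (SE 0.19, edgeR adjusted p = 0.00538). The near copies fell with it: Bcl2a1a was at 6.75, 6.83 and 8.87 CPM in Cxcr4+ APAP libraries, against 23.2 CPM in control macrophages, a log2 fold change of -1.63 (SE 0.19, edgeR adjusted p = 0.00232). Bcl2a1d had a log2 fold change of -1.16 (SE 0.19, edgeR adjusted p = 0.00612), and Bcl2a1c had 0 counts in every library. Because reads may be shared among the 3, their sum was taken as well. It was 23.0, 22.4 and 28.7 CPM in Cxcr4+ APAP libraries, against 61.9 CPM in control macrophages, and the summed row gave a log2 fold change of -1.33 (edgeR adjusted p = 0.00234). In GENCODE M21 a further gene on the same strand, Gm29094, overlaps 49.1% of the exon bases of Bcl2a1b. Markers of neutrophils, which also use A1, went the other way, with 6 of 9 tested higher and a sum of 344, 269 and 190 CPM in Cxcr4+ APAP libraries, against 116 CPM in control macrophages. Most of each sum was 1 gene, Csf3r, at 231, 199 and 153 CPM in Cxcr4+ APAP libraries, against 111 CPM in control macrophages. Of the defining markers, Ly6g, Camp, Ltf and Ngp were at 0 in the control, and Ly6g had at most 0.139 CPM in any library. The part of neutrophils in the Bcl2a1 values was not tested.

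Mcl1 did not pass the test. It was at 661, 682 and 678 CPM in Cxcr4+ APAP libraries, against 777 CPM in control macrophages, a log2 fold change of -0.21 (95% interval -0.44 to 0.03, edgeR adjusted p = 0.129). It varied least of the members over the APAP libraries, with a coefficient of variation of 1.66%. Without regard to length, Mcl1 made up 90.6% to 91.1% of the summed survival CPM in Cxcr4+ APAP libraries, against 87.9% in control macrophages. Bcl2l2, which encodes Bcl-w, had 21.1, 21.8 and 23.5 CPM in Cxcr4+ APAP libraries, against 19.0 CPM in control macrophages (log2 fold change 0.22, interval -0.08 to 0.53, edgeR adjusted p = 0.186).

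The effectors were lower or not called. Bak1, which sits on mitochondria held by Mcl1 and Bcl-xL, was at 108, 88.6 and 80.9 CPM in Cxcr4+ APAP libraries, against 140.5 CPM in control macrophages. The first APAP library was nearest to the control, without reaching it. The log2 fold change was -0.60 (SE 0.16, edgeR adjusted p = 0.0289). Without the second APAP library the call was lost, at -0.57 (edgeR adjusted p = 0.0945). Bax, which moves from the cytosol to mitochondria on activation, was at 41.2, 39.1 and 43.9 CPM in Cxcr4+ APAP libraries, against 47.2 CPM in control macrophages. Its log2 fold change of -0.19 (95% interval -0.45 to 0.07) did not pass (edgeR adjusted p = 0.186). In GENCODE M21 the gene Gm45808, on the same strand, overlaps 12.2% of the exon bases of Bax. Bok, a related effector at low level, was at 1.27, 1.10 and 1.40 CPM in Cxcr4+ APAP libraries, against 2.36 CPM in control macrophages. It had a log2 fold change of -0.91 (SE 0.29, edgeR adjusted p = 0.0466), and the call was lost without any 1 of the APAP libraries (adjusted p = 0.0543 to 0.122), with no count filter (0.0611) and with DESeq2 (0.102).

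The BH3-only genes gave the strongest rise of the family. Bcl2l11, which encodes Bim, a protein that binds every survival protein of the family, was at 104, 108.5 and 101 CPM in Cxcr4+ APAP libraries, against 38.0 CPM in control macrophages. The APAP values were almost equal, and none came near the control. The log2 fold change was 1.46 (SE 0.10, edgeR adjusted p = 0.00101), or 2.75-fold. Of the 10 members, it alone passed the test against a log2 fold change of 1 (edgeR glmTreat, adjusted p = 0.0134).

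Bbc3, which encodes Puma, a p53 and FOXO target in other settings, was at 22.2, 29.2 and 31.2 CPM in Cxcr4+ APAP libraries, against 14.9 CPM in control macrophages. The first APAP library was lowest of the 3 and still above the control. The log2 fold change was 0.89 (SE 0.22, edgeR adjusted p = 0.0217), and without the second APAP library the call was lost at 0.84 (adjusted p = 0.0675). Bmf, a BH3-only protein known to be held at the cytoskeleton, rose as well. It was at 42.6, 49.3 and 40.9 CPM in Cxcr4+ APAP libraries, against 18.7 CPM in control macrophages, with a log2 fold change of 1.24 (SE 0.15, edgeR adjusted p = 0.00237).

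Pmaip1, which encodes Noxa, a partner of Mcl1 and A1, fell. It was at 38.3, 45.5 and 45.8 CPM in Cxcr4+ APAP libraries, against 62.9 CPM in control macrophages. The groups did not overlap, and the log2 fold change was -0.54 (SE 0.13, edgeR adjusted p = 0.0188). Without the second APAP library the value was -0.58 and the call was lost (edgeR adjusted p = 0.0542).

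Bid, which caspase 8 or granzyme B cuts into its active form, was at 20.5, 16.3 and 16.9 CPM in Cxcr4+ APAP libraries, against 13.97 CPM in control macrophages. The log2 fold change of 0.36 (95% interval -0.07 to 0.79) did not pass (edgeR adjusted p = 0.142). Its exons overlap those of Bcl2l13, on the opposite strand, over 628 of 3550 bases, and the strand setting of the counts is not given in the sources used here. Bcl2l13 rose by 0.41 on the log2 scale (SE 0.12, edgeR adjusted p = 0.0347), a call lost without the second APAP library (adjusted p = 0.0957). Bad, a BH3-only protein under growth factor control, had a log2 fold change of -0.32 (95% interval -0.59 to -0.05) that did not pass (edgeR adjusted p = 0.0593). It passed under upper-quartile scaling (0.0465), under a filter of 5 CPM (0.0431) and when the first APAP library was left out (0.0451). Bik had 14 to 25 counts in Cxcr4+ APAP libraries, against 18 in control macrophages, a log2 fold change of -0.10 with an interval of -1.48 to 1.28. Bad shares 524 exon bases with Gpr137 and Bak1 437 with the far lower Ggnbp1 (29 to 49 counts in APAP libraries and 8 in the control), both on the opposite strand, so the same limit holds for them.

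**Figure D2:**
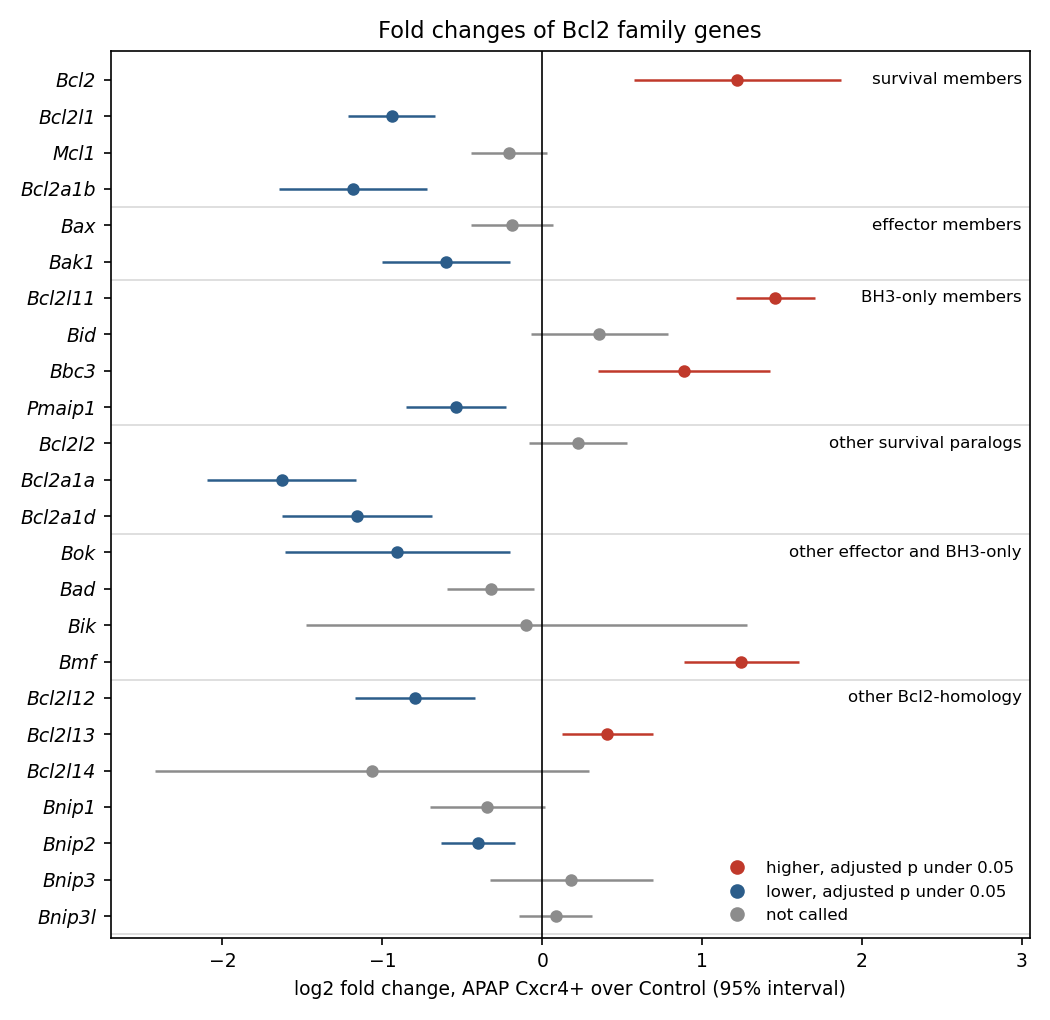
Log2 fold changes of APAP Cxcr4+ over control libraries with 95% intervals from the edgeR fit for the 10 members and 14 other family genes tested, in blocks by role. Red genes were called higher, blue genes lower and grey genes not called at an adjusted p of 0.05. Bcl2l11 is highest at 1.46 and Bcl2a1a lowest at -1.63.

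Of 18 other genes of the family, 16 had a row and 14 were tested, with 2 higher and 5 lower. Besides those above, Bcl2l12, a nuclear and cytosolic protein, fell by 0.80 on the log2 scale (SE 0.15, edgeR adjusted p = 0.00969) and Bnip2 fell by 0.40 (SE 0.09, edgeR adjusted p = 0.0194). The mitophagy receptors Bnip3l and Bnip3 had log2 fold changes of 0.08 and 0.18 and did not pass, nor did Bnip1 at -0.34 and Bcl2l14 at -1.07. Bcl2l15 had at most 6 counts and was not tested. Without the second APAP library the call of Bnip2 was lost (edgeR adjusted p = 0.0845). Bcl2l12 shares 572 of its 1976 exon bases with Gm15545 and 88 with the more abundant Irf3, both on the opposite strand. The strand limit given for Bid thus holds for Bcl2l12 too.

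Survival genes were set against death genes within each library. The scaling of the libraries cancels in a ratio of CPM, though not in a plain sum. The trend over gene length described below does not cancel in either. These scores, sums and ratios were not run with the length and GC correction. The mean log2 CPM of the 4 survival genes minus that of the 6 death genes, at a pseudocount of 0.5 CPM, was -0.09, 0.06 and 0.06 in Cxcr4+ APAP libraries, against 0.51 in control macrophages. The APAP mean was lower by a difference of -0.50 (SD of the APAP libraries 0.08), which became -0.21 without Bcl2a1b. The summed survival CPM was 725, 749 and 748 in Cxcr4+ APAP libraries, against 884 in control macrophages, and the summed death CPM 334, 327 and 319.5 in Cxcr4+ APAP libraries, against 317 in control macrophages. Most of the fall in the survival sum was Mcl1, which was not called. Within the death genes, the BH3-only sum was 185, 199 and 195 CPM in Cxcr4+ APAP libraries, against 129.8 CPM in control macrophages. That rise was mainly Bcl2l11, at 104, 108.5 and 101 CPM in Cxcr4+ APAP libraries, against 38.0 CPM in control macrophages, while Pmaip1 fell. The effector sum was 149, 128 and 125 CPM in Cxcr4+ APAP libraries, against 188 CPM in control macrophages. The BH3-only sum over the effector sum was 1.24, 1.56 and 1.56 in Cxcr4+ APAP libraries, against 0.69 in control macrophages. These sums and ratios are not per length, so they compare libraries and not genes. No test was made on these scores over members.

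Of the 24 pairs of a survival gene over a death gene, the control ratio was above all APAP ratios in 15, below them in 7 and between them in 2. Every pair with Bcl2l1 or Bcl2a1b on top was among the 15. Pairs that share a gene are not independent. The same count was not made over pairs of other genes, and 84.8% of single genes tested had the control outside the APAP span. Bcl2l1 over Bcl2l11 was at 0.414, 0.350 and 0.436 in Cxcr4+ APAP libraries, against 2.10 in control macrophages. Bcl2a1b over Bcl2l11 was at 0.0736, 0.0779 and 0.101 in Cxcr4+ APAP libraries, against 0.525 in control macrophages. Mcl1 over Bcl2l11 was at 6.36, 6.28 and 6.73 in Cxcr4+ APAP libraries, against 20.4 in control macrophages. The pairs with Bcl2 on top went the other way, except against Bcl2l11, where APAP ratios of 0.133, 0.191 and 0.158 took in the control ratio of 0.1897. Mcl1 over Bak1 also went the other way, at 6.12, 7.69 and 8.38 in Cxcr4+ APAP libraries, against 5.53 in control macrophages. So did Mcl1 over Pmaip1, at 17.2, 14.998 and 14.8 in Cxcr4+ APAP libraries, against 12.4 in control macrophages. Mcl1 over Bax was at 16.0, 17.5 and 15.5 in Cxcr4+ APAP libraries, against 16.5 in control macrophages, within their range.

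**Figure D3:**
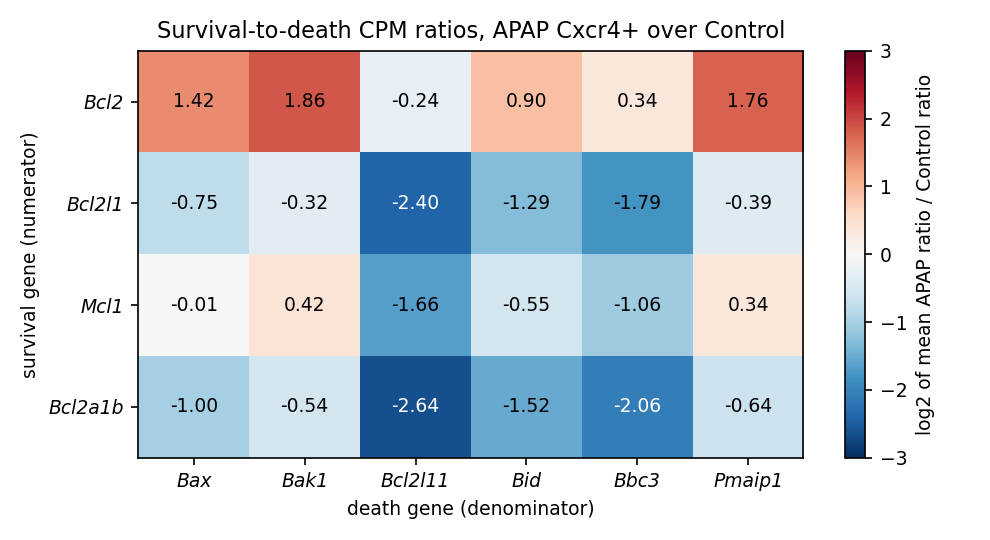
Log2 of the mean APAP ratio over the control ratio for each survival gene (rows) divided by each death gene (columns), from CPM within a library. The lowest cells are in the Bcl2l11 column, at -2.64 for Bcl2a1b and -2.40 for Bcl2l1, and the highest is Bcl2 over Bak1 at 1.86.

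In these libraries fold changes also followed the length of a gene's exons. Across the genes tested, the 4664 longest (5823 bases or more) had a median log2 fold change of 0.46 and the 4664 shortest (up to 1720 bases) one of -0.30. Of the longest genes 47.3% were called higher, and of the shortest 14.5%. Bcl2, at 9157 bases, and Bcl2l11, at 8029 bases, are the longest members, and Bcl2a1b, at 817 bases, the shortest. With the trend over length and GC content taken out, Bcl2l11 kept a log2 fold change of 1.10 (edgeR adjusted p = 0.00199), Bcl2l1 had -0.99 (adjusted p = 0.00295), Bbc3 had 1.21 (adjusted p = 0.00935) and Bcl2a1b had -0.75 (adjusted p = 0.0315). Bmf had 1.13 (edgeR adjusted p = 0.00389), and Bcl2a1d had -0.74 (adjusted p = 0.0329). The calls of Bcl2 at 0.79 (edgeR adjusted p = 0.0538), Pmaip1 at -0.42 (0.0508) and Bak1 at -0.27 (0.214) were lost, and Bax changed sign, to 0.28 (0.0868). Among the other genes of the family, the calls of Bok (-0.48), Bcl2l12 (-0.37), Bnip2 (-0.32) and Bcl2l13 (-0.02, with its sign reversed) were lost as well. Whether the length trend comes from the libraries or from the cells was not tested.

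**Figure D4:**
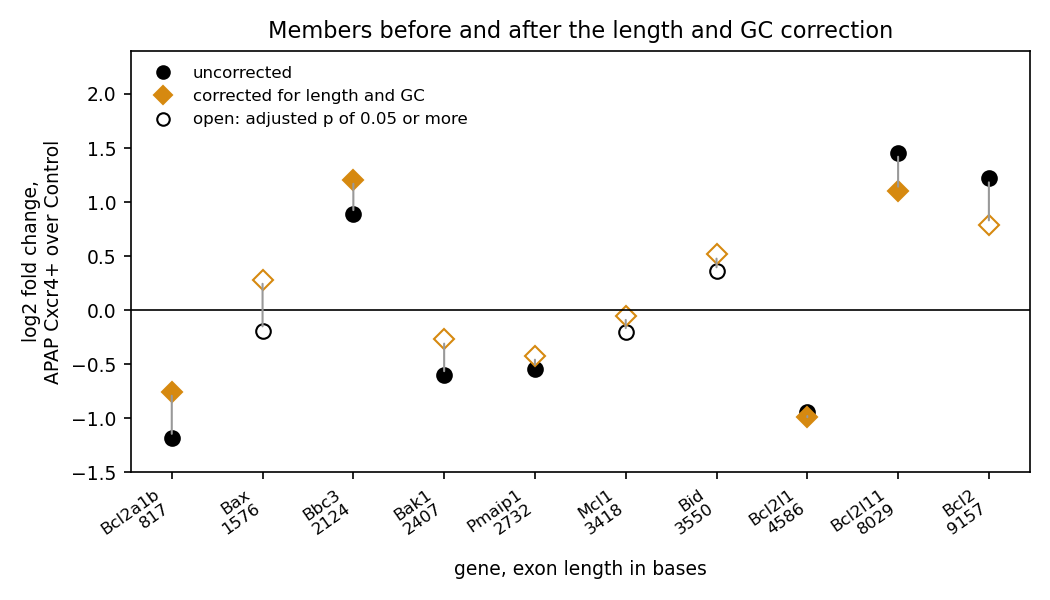
Log2 fold changes of the 10 members, ordered by exon length in bases, before (black circles) and after (orange diamonds) correction for length and GC content. Open symbols have an adjusted p of 0.05 or more. Bcl2l11, Bbc3, Bcl2l1 and Bcl2a1b stay filled in both.

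For the lists of genes around the family, the counts below stand beside 25.4% of all genes called higher and 18.9% lower, and a median log2 fold change of 0.08. No list was tested against these.

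Downstream of the pores, the parts of the apoptosome went in opposite directions. Of 13 apoptosome, caspase and nuclease genes, 3 were lower and 1 higher (median log2 fold change 0.12), with 2 lower without the second APAP library, and 2 higher without the first or with the length and GC correction. Cycs, which encodes the cytochrome c that the pores release, was at 30.1, 21.3 and 23.1 CPM in Cxcr4+ APAP libraries, against 71.0 CPM in control macrophages, a log2 fold change of -1.52 (SE 0.19, edgeR adjusted p = 0.00270). Apaf1, the scaffold that cytochrome c assembles, was at 97.8, 88.1 and 82.4 CPM in Cxcr4+ APAP libraries, against 46.1 CPM in control macrophages (0.96, SE 0.13, edgeR adjusted p = 0.00326). The nuclease gene Endog had a log2 fold change of -1.49 (SE 0.22, edgeR adjusted p = 0.00416). With the length and GC correction Apaf1 had 0.54 (edgeR adjusted p = 0.0235) and Endog -0.91 (0.0269).

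Of 9 genes of the inhibitor of apoptosis family and its regulator Xaf1, 5 rose by edgeR, and none fell, also at an unadjusted p under 0.05 (0 of 9) and by DESeq2 and limma-voom (0 of 9 each). The median log2 fold change was 0.43, and without the first APAP library 1 fell, while without the second 3 rose. Birc6, a giant ubiquitin ligase, had 226 ± 7.98 CPM in APAP libraries (SD, n = 3) and 85.1 CPM in the control. Its log2 fold change of 1.41 became 0.40 with the length and GC correction (edgeR adjusted p = 0.0284). Naip6 rose by 1.37 and Naip5 by 0.64 on the log2 scale. The Naip genes are near copies of each other that sense bacterial proteins, so their reads may also be shared. The call of Naip5 was lost without the second APAP library (edgeR adjusted p = 0.0625). Xiap, which inhibits caspases directly, rose by 0.63 (SE 0.10, edgeR adjusted p = 0.00555), a call lost with the length and GC correction (0.21, adjusted p = 0.119).

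Of 7 genes of outer membrane channels and their partners, 4 fell (median log2 fold change -0.45), or 6 without the first APAP library. By edgeR 0 rose, also at an unadjusted p under 0.05 and by DESeq2 and limma-voom. Vdac3, a channel for metabolites, fell by 0.77 on the log2 scale (SE 0.10), Tmbim6, a Bax inhibitor of the endoplasmic reticulum, by 0.72, Bcap31 by 0.70, and Mtch2, a mitochondrial receptor for cleaved Bid, by 0.45, with edgeR adjusted p between 0.00290 and 0.0342. Bcap31 lost its call with the length and GC correction (-0.28, edgeR adjusted p = 0.0954), and Mtch2, which had -0.83 with the correction, without the second APAP library (adjusted p = 0.109). Of 12 genes of the death receptor arm that feeds Bid, 3 fell and 2 rose (median log2 fold change -0.10), with 1 lower without the second APAP library or with the length and GC correction. Tnfrsf1a, the tumour necrosis factor receptor, was at 289 ± 6.53 CPM in APAP libraries (SD, n = 3) and 429 CPM in the control. It had a log2 fold change of -0.57, and its adaptor Tradd one of -0.49. Both calls were lost with the length and GC correction (edgeR adjusted p = 0.0702 and 0.786), and that of Tradd also without the second APAP library (0.0505). Gzmb, the granzyme B of cytotoxic lymphocytes, was at 29.0, 14.6 and 13.1 CPM in Cxcr4+ APAP libraries, against 4.09 CPM in control macrophages, with a log2 fold change of 2.20 (edgeR adjusted p = 0.0216, and 0.0607 with limma-voom). Summed NK cell markers were 31.8 to 46.6 CPM in Cxcr4+ APAP libraries, against 13.97 CPM in control macrophages, and their part in this value was not tested. Tnfrsf10b, a death receptor, was near 1 CPM in APAP libraries (0.942 ± 0.143 CPM, SD, n = 3) and at 0.134 CPM in the control.

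Regulators known to act on the members went both ways, with 5 of 14 higher and 4 lower (median log2 fold change 0.24). Without the second APAP library 3 were higher and 3 lower, and with the length and GC correction 3 and 4. Foxo3, which is known to drive Bcl2l11 and Bbc3, was at 150.3, 160.5 and 166 CPM in Cxcr4+ APAP libraries, against 78.0 CPM in control macrophages, a log2 fold change of 1.03 (SE 0.10, edgeR adjusted p = 0.00169). Foxo1, singled out after its value was seen, had 0.63 (SE 0.14, edgeR adjusted p = 0.0143). Rel, an NF-kB subunit known to induce A1 and Bcl-xL, rose by 0.85 (SE 0.09) and Stat5a, which relays growth factor signals, by 1.16 (SE 0.14), while E2f1 fell by 1.01 on the log2 scale (SE 0.09), with edgeR adjusted p between 0.00145 and 0.00247. With the length and GC correction Foxo3 had 0.69 (edgeR adjusted p = 0.00505), Rel 0.54 (0.00764) and Stat5a 0.81 (0.0102). These were the 3 regulators still called higher, so the call of Foxo1 was lost. Of the other NF-kB subunits listed, Rela was lower, with a log2 fold change of -0.33 (SE 0.10, edgeR adjusted p = 0.0378). Nfkb1, at 0.33, did not pass (edgeR adjusted p = 0.0582). Both were singled out after their values were seen. Trp53, which encodes p53 and was also singled out after its value was seen, had 57.2 to 58.8 CPM in Cxcr4+ APAP libraries, against 89.8 CPM in control macrophages (log2 fold change -0.63, edgeR adjusted p = 0.00322).

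Of 13 targets of p53 other than the members, 8 were higher and 2 lower (median log2 fold change 0.69). Cdkn1a, the cell cycle inhibitor p21, was at 79.0, 86.7 and 114 CPM in Cxcr4+ APAP libraries, against 17.1 CPM in control macrophages, a log2 fold change of 2.44 (SE 0.24, edgeR adjusted p = 0.00168). Trp53inp1 rose by 1.42, Sesn1 by 0.95 and Ccng1 by 0.90 on the log2 scale, with edgeR adjusted p between 0.00143 and 0.00303. With the length and GC correction 6 of the 13 were higher and 2 lower.

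Of 14 partners that bind members or set their turnover, 3 were higher and 3 lower (median log2 fold change 0.06), with 1 lower without the second APAP library and 5 lower with the length and GC correction. Among genes that set ubiquitin on Mcl1, the ligase gene Huwe1 rose by 1.41 (SE 0.10) and the deubiquitinase gene Usp9x by 1.27 (SE 0.10) on the log2 scale (edgeR adjusted p = 0.00107 and 0.00112). The ligase genes Fbxw7, at 0.33, and Btrc, at 0.12, did not pass (edgeR adjusted p = 0.0954 and 0.489). With the length and GC correction Huwe1 and Usp9x had 0.44 (edgeR adjusted p = 0.0235) and 0.59 (0.0103). Gsk3b, a kinase that marks Mcl1 for degradation, rose by 0.90 (SE 0.10), and by 0.43 after the correction (edgeR adjusted p = 0.00212 and 0.0216). Dynll2, the dynein light chain known to hold Bmf, was at 71.2, 66.3 and 76.9 CPM in Cxcr4+ APAP libraries, against 119.85 CPM in control macrophages, a log2 fold change of -0.75 (SE 0.11, edgeR adjusted p = 0.00398), and -0.45 with the correction (adjusted p = 0.0239).

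**Figure D5:**
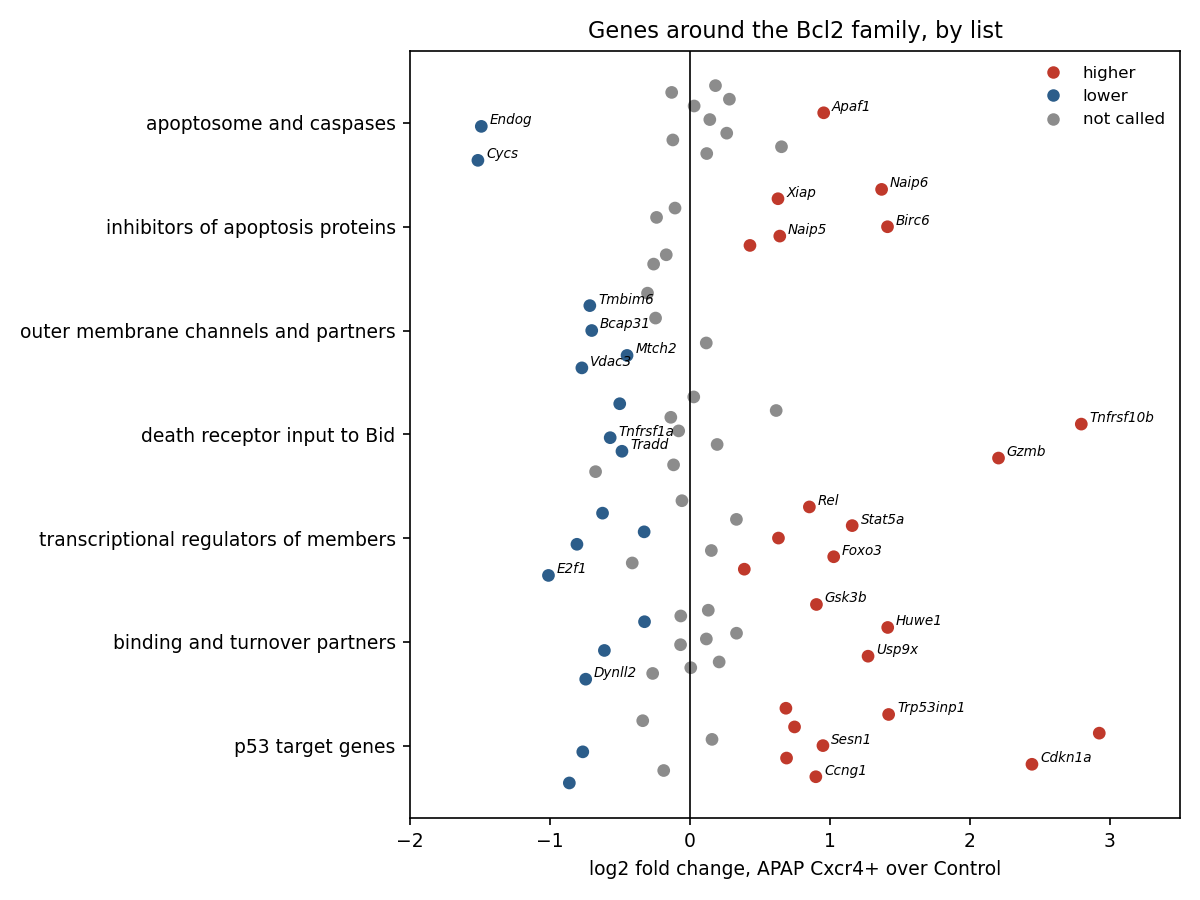
Log2 fold changes of APAP Cxcr4+ over control libraries for the genes of 7 lists around the family, 1 point a gene, with height within a row used for spacing alone. Red genes were called higher, blue lower and grey not called, labels mark up to 4 genes of a list with the smallest p-values, and Trp73, with at most 12 counts in a library, and 1 gene not reported here are left out. Cdkn1a at 2.44 and Cycs at -1.52 lie near the ends.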

How the data were processed

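The deposited values were raw read counts per Ensembl gene, whole numbers with no normalization by the authors. Build mm39, HISAT2 and Subread are named, per the submitters' processing notes. Tool versions, annotation, strand setting and the treatment of shared reads are not given in the sources used. Symbols were matched for 28926 of 29247 IDs (98.9%). Exon lengths came from GENCODE M21, of another build, and promoter coordinates are those of GRCm38.p6, not converted. APAP columns are unnumbered in the table, so the libraries are named by their order in it.

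Counts were analysed with edgeR 4.0.16 in R 4.3.3: filterByExpr (minimum count 10, minimum total 15), TMM factors, and the quasi-likelihood F test over all 18715 genes kept, with Benjamini-Hochberg adjustment and no covariates. With 1 control library, the spread came from the 3 APAP libraries (2 residual degrees of freedom, 3.80 prior), and the control was assumed to vary like them. SE is the log2 fold change over the square root of F. Intervals cover this spread alone. Read counts of every pair of libraries differed by more than sampling noise (chi-square per degree of freedom 18.2 or more), so no library was counted as a copy.

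Members and lists were chosen with earlier results of these data known. Named genes were all 10 members, the other family genes with a row, up to 4 genes of each pathway list with the smallest p-values, and some of the most abundant markers. Of these, 1 pathway gene is not reported here. Foxo1, Trp53, Rela, Nfkb1, Fbxw7, Btrc, Batf3 and Kdr were named after their values were seen. Alternatives were DESeq2 1.42.0 size factors and Wald test, upper-quartile factors, limma-voom (limma 3.58.1), glmTreat, 2 other count filters, leaving out each APAP library, summing the Bcl2a1 genes, a loess correction for length and GC (18644 genes, 99.6% of those tested), and other pseudocounts.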

Additional observations from a re-analysis of the deposited data

How the results depend on the processing

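The count of all genes called was 8295, was 1379 when tested against a log2 fold change of 1, and ran from 5001 to 9380 when 1 APAP library was left out. It was lowest without the second. Members called higher numbered 3, and 1 against a log2 fold change of 1, with 2 to 3 when a library was left out. Members called lower numbered 4, and 2 with the length and GC correction. Against a log2 fold change of 1 (glmTreat), 0 were lower, also at an unadjusted p under 0.05, where edgeR's main test, DESeq2 and limma-voom each called 4. Leaving out 1 library gave 2 to 4, with 2 without the second. Pathway genes called numbered 43 of 82, 6 against a log2 fold change of 1, and 31 to 51 with a library left out. Bax reversed to 0.28 with the length and GC correction. The survival minus death difference of -0.50 was -0.21 without Bcl2a1b, and -0.53 to -0.45 with a library left out. Bcl2l11 kept its direction and its call under every alternative run, with values of 1.10 to 1.498. No paired analysis was possible because the control is 1 library. The single control limits every value. The cause of these changes was not tested.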
